A study of Mus musculus with 2 samples.

Results

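Matricellular proteins are secreted into the matrix but act mainly as signals and adaptors there, binding collagens, growth factors and cell surface receptors rather than forming fibres. Their genes are known to change after tissue damage, and in the central nervous system microglia, invading macrophages, astrocytes and vessel cells are known sources. Here 5 genes of this class were followed in phagocytes of the mouse optic nerve, chosen by name and leaving aside fibronectin (Fn1) and osteopontin (Spp1): Sparc, Tgfbi, Postn, Thbs1 and Ecm1. All 5 were among the 31053 gene rows of the table.

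Cells labelled as microglia or macrophages came from optic nerves of Wildtype 129S1/SvlmJ mice of both sexes, at 10 weeks of age, and were captured in droplets with the 10x Genomics 3′ v2 chemistry. The injured group had the nerve crushed at 8 weeks, 2 weeks before collection, and the uninjured group had no treatment; the sources used here do not give how many animals were pooled. Each group was 1 library, so no difference between them has a replicate check, no test was made, and the 95% intervals cover only the error of counting.

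There were 727 injured cells with 3697992 UMIs (unique molecular identifiers, each standing for 1 captured transcript), with a median of 1123 per cell. The uninjured cells numbered 51 and had 87499 UMIs, with a median of 888 per cell, so uninjured counts limit every comparison. Levels are CPM, UMIs scaled to a common total of each library or class, and a count of 0 allows up to 0.811 CPM in injured cells and 34.3 CPM in uninjured cells (3 counts). No barcode was shared between the libraries. At least 1 of 10 homeostatic microglia markers turned up in 89.8% of injured cells, against 88.2% of uninjured ones. Among uninjured cells, 1 cell of 11100 UMIs held 10194 haemoglobin UMIs, and values with and without it are given where it matters. Oligodendrocyte markers summed to 1119 CPM in injured, against 8320 CPM in uninjured cells, and all 6 were seen in both libraries.

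Sparc was by far the most abundant of the 5 genes and had about the same summed level in both libraries. Ecm1, Thbs1 and Postn had 222, 152 and 321 injured UMIs, against 0, 0 and 1 uninjured UMIs. Total UMIs differed 42.3-fold between the libraries, which by itself makes raw injured counts larger. After thinning to 500 UMIs, 1.65%, 1.79% and 3.71% of injured cells had a UMI of these genes. None of 49 uninjured cells did, which allows up to 7.25%, so restriction to injured cells was not shown. Tgfbi did not differ beyond counting error. Of 6680 genes that reached 5% of the cells of either library, 30.3% were at least 1.5-fold higher and 25.3% at least 1.5-fold lower in injured cells on the scale of CPM + 10. Of the 5 genes, 3 (Ecm1, Thbs1 and Postn) were called higher and 0 lower. These 3 reached the 5% minimum through the injured library alone. All 762 compared genes with 0 uninjured UMIs were called higher, so the calls of Ecm1 and Thbs1 followed from their 0.

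**Figure D1:**
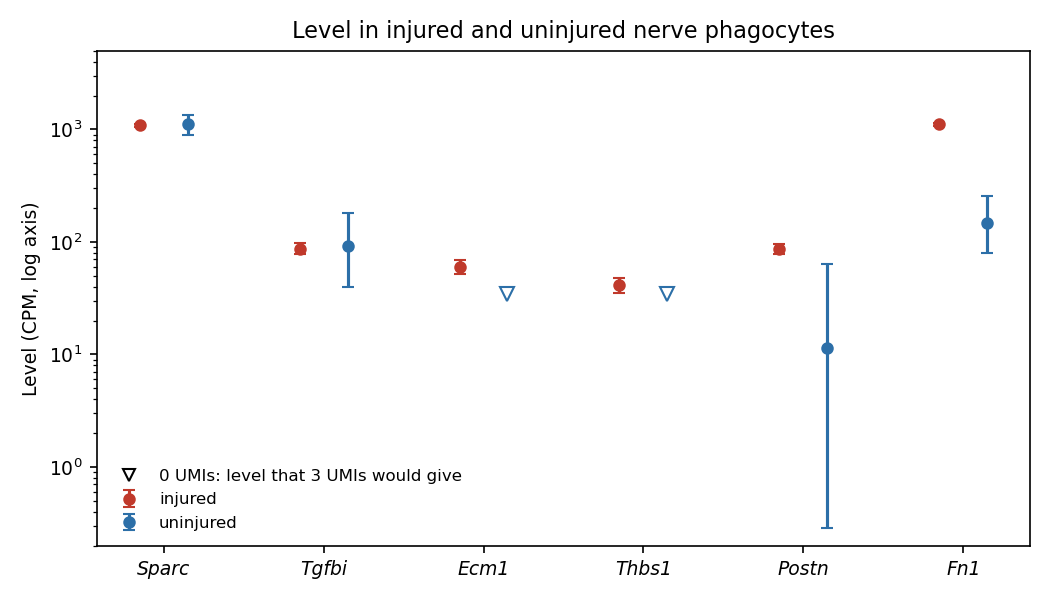
Level (CPM, log axis) of the 5 genes and Fn1 in the injured (red) and uninjured (blue) library, 1 library each; bars are exact 95% Poisson intervals and open triangles stand at the level that 3 UMIs would give where none was counted. Sparc at 1094 and 1109 CPM and Tgfbi at 87.1 and 91.4 CPM lie side by side, while Ecm1 and Thbs1 have no uninjured UMI.

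Sparc encodes a collagen-binding glycoprotein that is known to loosen cell adhesion and steer collagen assembly, and in mouse brain it is known from microglia, astrocytes and endothelial cells. It lies on chromosome 11 (mm10, 55394500 to 55423183, minus strand). Summed over all cells it stood at 1094 CPM (1060 to 1128; 4045 UMIs) among injured cells, against 1109 CPM (899 to 1352; 97 UMIs) among uninjured cells, a ratio of 0.987 (0.807 to 1.22). Without the uninjured haemoglobin cell the uninjured level was 1270 CPM and the ratio 0.862 (0.704 to 1.06). A Sparc UMI was seen in 384 injured cells (52.8%) and in 32 uninjured ones (62.7%). After each cell was thinned to 500 UMIs, the shares were 30.5% (27.2 to 34.0) of injured and 46.9% (32.5 to 61.7) of uninjured cells. In the 5 injured cells with at least 2 T cell markers, a type not expected to make Sparc, 1 cell had 1 UMI (20%, 0.505 to 71.6; median depth 5387 UMIs), too few to set a background.

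Behind the near-equal sums, the ratio differed from one kind of cell to another. Cells with 5000 UMIs or more were called deep, and the rest were divided into shallow cells with at least 1% (Malat1-rich) or under 1% (Malat1-poor) of their UMIs from Malat1, a nuclear RNA. In deep cells Sparc stood at 1112 CPM in injured (144 cells) and 529 CPM in uninjured cells (4 cells), a ratio of 2.10 (1.34 to 3.50). Without the haemoglobin cell the ratio was 1.45 (0.929 to 2.42), so the difference in deep cells then lay within counting error. The 4 uninjured deep cells had 8, 0, 0 and 11 Sparc UMIs, the haemoglobin cell being one of those at 0.

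Shallow Malat1-rich cells went the other way. There Sparc stood at 528 CPM (93 UMIs, 91 cells) in injured cells, against 1601 CPM (41 UMIs, 17 cells) in uninjured ones, 3.03-fold lower (2.05 to 4.43) in injured cells, and its UMIs reached 37.4% of the injured cells, against 76.5% of the uninjured cells of the class. In shallow Malat1-poor cells the levels were 1174 CPM in injured, against 1426 CPM in uninjured cells, a ratio of 0.824 (0.591 to 1.18). Other values moved with these classes. Homeostatic microglia markers summed to 2866 CPM in injured, against 16984 CPM in uninjured Malat1-rich cells, astrocyte markers to 573 and 3514 CPM, oligodendrocyte markers to 2627 and 7691 CPM, and the median mitochondrial share was 10.7% and 3.11%. Of the 6 astrocyte markers, Aqp4, Aldoc and Gja1 were at 0 in Malat1-rich cells of both groups and Gfap was at 0 in the uninjured ones. The part of these in the Sparc difference was not tested. In Malat1-poor cells without any UMI of the endothelial, astrocyte, pericyte or fibroblast markers (289 injured and 18 uninjured cells), Sparc stood at 1224 CPM in injured, against 2065 CPM in uninjured cells, 1.69-fold lower (1.10 to 2.49) in injured cells. Such a ratio could not be had for Malat1-rich cells, since all 27 uninjured Sparc UMIs left by this filter were in Malat1-poor cells.

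**Figure D2:**
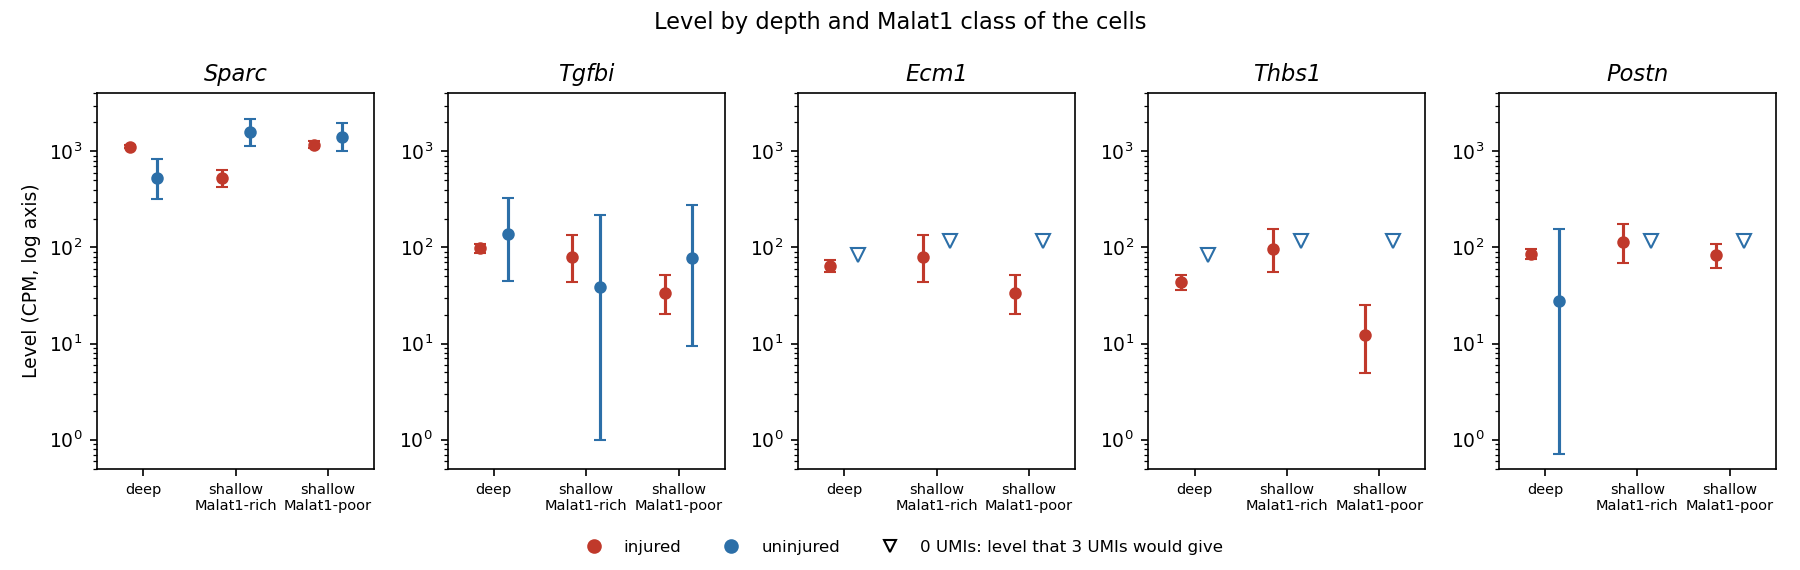
Level (CPM, log axis) of each gene in deep, shallow Malat1-rich and shallow Malat1-poor cells, injured in red and uninjured in blue, with exact 95% Poisson intervals; open triangles mark the level that 3 UMIs would give where none was counted. Sparc lies lower in injured than in uninjured Malat1-rich cells (528 and 1601 CPM), and the uninjured deep point includes the haemoglobin cell, while the triangles of Ecm1 and Thbs1 show how little 0 uninjured UMIs limit a level within a class.

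By depth, from the shallowest to the deepest cells, injured Sparc stood at 1028 CPM in cells under 600 UMIs, 874 at 600 to 1000, 1069 at 1000 to 5000, 657 at 5000 to 15000 and 1188 CPM over 15000. Uninjured Sparc stood at 1859, 1904, 1282 and 529 CPM in the first 4 of these classes, and no uninjured cell exceeded 15000 UMIs. The ratio excluded 1 only at 600 to 1000 UMIs (0.459, 0.299 to 0.732). Over all cells under 5000 UMIs it was 0.675 (0.534 to 0.864).

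Tgfbi and Postn encode related proteins built from fasciclin domains, which bind integrins and matrix, and both are known targets of transforming growth factor beta. Tgfbi (chromosome 13, 56609523 to 56639562, plus strand) stood at 87.1 CPM (77.8 to 97.1; 322 UMIs in 106 cells) among injured cells, against 91.4 CPM (39.5 to 180; 8 UMIs in 4 cells) among uninjured cells, a ratio of 0.952 (0.478 to 2.22). The interval thus leaves room for a 2-fold difference either way. Without the cell of each library with the most Tgfbi, the ratio was 1.58 (0.610 to 5.84).

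The few uninjured Tgfbi counts sat in cells of different kinds. A cell of 8863 UMIs held 4 Tgfbi UMIs together with the only uninjured Postn UMI, 2 Fn1 UMIs and 60 of the 67 border macrophage marker UMIs of its library. A cell of 1422 UMIs held 2 Tgfbi, 7 Fn1 and the other 7 border macrophage UMIs. The remaining cells had 1 Tgfbi UMI each, with no border macrophage UMI and with 11 and 63 UMIs of homeostatic microglia markers.

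Among injured cells Tgfbi was not spread evenly over depth. It had 0 UMIs in 109 cells under 600 UMIs (up to 49.7 CPM allowed), then 76.7 CPM at 600 to 1000, 38.8 at 1000 to 5000, 236 at 5000 to 15000 and 74.7 CPM over 15000 UMIs. Deep injured cells stood at 97.9 CPM, Malat1-rich at 79.4 and Malat1-poor at 33.4 CPM, against 139, 39.0 and 77.1 CPM in the uninjured classes, which rest on 5, 1 and 2 UMIs.

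Postn, on chromosome 3 (54361109 to 54391037, plus strand), encodes periostin, best known from fibroblasts of scars and healing wounds. It stood at 86.8 CPM (77.6 to 96.8; 321 UMIs in 67 cells, 9.22%) among injured cells, against 11.4 CPM (1 UMI in 1 cell) among uninjured cells, a ratio of 7.60 with a wide interval (1.35 to 301). After thinning to 500 UMIs it was seen in 3.71% (2.46 to 5.36) of 727 injured and in 0 of 49 uninjured cells, which allows up to 7.25%. Postn was the most concentrated of the 5 genes: 5 injured cells held 57.9% of its UMIs and 1 cell alone held 65 UMIs. For comparison, the 5 richest cells held 16.2% of Sparc, 26.7% of Tgfbi, 27.0% of Ecm1 and 32.2% of Thbs1 UMIs in the injured library. Without the 4 deep cells with the most Postn, the injured to uninjured ratio was 3.56 against a single UMI, and its interval (0.628 to 141) then includes 1.

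Injured cells of every class carried Postn: 86.0 CPM in deep, 113 CPM in Malat1-rich and 82.6 CPM in Malat1-poor cells. The uninjured classes had 1, 0 and 0 UMIs, and 0 allows 117 CPM in Malat1-rich and 116 CPM in Malat1-poor uninjured cells, so no difference was detectable within a shallow class. The 26 deep injured cells with Postn were compared with the 118 without it by their markers. Homeostatic microglia markers summed to 7317 CPM in cells with Postn and 5729 CPM in those without, with all 10 markers seen in both. Fibroblast markers summed to 9.22 CPM in cells with Postn, with Col1a1, Col1a2 and Lum at 0, and to 11.3 CPM in those without. Pericyte markers were all at 0 in cells with Postn, and monocyte markers summed to 6.15 CPM in cells with and 45.2 CPM in cells without Postn. Astrocyte markers summed to 272 CPM in cells with and 151 CPM in cells without Postn, with Aqp4, Aldoc and Gja1 at 0 in the cells with it. Endothelial markers summed to 104 CPM in cells with and 62.6 CPM in cells without Postn, with Cldn5, Pecam1, Cdh5, Ly6c1 and Vwf at 0 in the cells with it. The part of these lists in the Postn counts was not tested. The cells with Postn were deeper, with a median of 26168.5 UMIs against 18614 in those without, which raises the chance of seeing any gene.

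Thbs1 and Ecm1 had no uninjured UMI. Thbs1 (chromosome 2, 118111876 to 118127133, plus strand) encodes thrombospondin 1, which binds the receptors CD36 and CD47 and is a known activator of latent transforming growth factor beta. It stood at 41.1 CPM (34.8 to 48.2; 152 UMIs in 62 cells, 8.53%) in the injured library, at least 1.20-fold higher than 3 counts would give in the uninjured one. The annotation places a noncoding gene, Gm29233, on the opposite strand over it, and the sources used here do not give how strand was used in counting. Ecm1 (chromosome 3, 95734147 to 95739569, minus strand) encodes a secreted glycoprotein that binds perlecan and other matrix proteins. It stood at 60.0 CPM (52.4 to 68.5, 222 UMIs in 98 cells, 13.5%), 1.75-fold the level of 3 counts and above 42.2 CPM. The annotation places the microRNA gene Mir7014 within Ecm1, on the same strand. Without the uninjured haemoglobin cell the bounds were 1.05-fold for Thbs1 and 1.53-fold for Ecm1.

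Most injured UMIs of both genes lay in deep cells, 128 of 152 for Thbs1 and 189 of 222 for Ecm1, but deep cells held 2952986 of all 3697992 injured UMIs. Thbs1 stood at 43.3 CPM in deep, 96.5 in Malat1-rich and 12.3 CPM in Malat1-poor injured cells, and Ecm1 at 64.0, 79.4 and 33.4 CPM. In the uninjured classes 0 UMIs allows 83.5, 117 and 116 CPM, above each of these injured levels, so the difference was not detectable within these 3 classes. By depth, Thbs1 in cells of 5000 to 15000 UMIs stood at 113 CPM in 45 injured cells, with 0 UMIs in 4 uninjured cells. That is 1.36-fold above the level of 3 counts, but 5 injured cells held 79.2% of these Thbs1 UMIs. The 4 uninjured cells include the haemoglobin cell. Without it, 1 UMI in the others stands for 40.3 CPM, so 3 counts exceed 113 CPM and the bound is lost. After thinning to 500 UMIs, Thbs1 was seen in 1.79% and Ecm1 in 1.65% of injured cells and in 0 of 49 uninjured cells, where up to 7.25% is allowed. Monocyte markers, in which Malat1-rich injured cells were richest (238 CPM, against 36.6 in deep and 36.9 CPM in Malat1-poor ones), had 0 UMIs in uninjured cells, with all 7 at 0; their part in the Thbs1 and Ecm1 counts was not tested. Platelet markers, of a cell type that stores thrombospondin 1, summed to 2.43 CPM in injured and 11.4 CPM (1 UMI) in uninjured cells, with Ppbp, Gp9 and Gp1bb at 0 in both.

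How the 5 genes relate to Fn1 was asked within the 144 deep injured cells, which share 1 library; every correlation here is a description over cells, on ln(1 + UMIs per 10000). Fn1 was seen in 129 of these cells, with a median of 6.06 and a highest value of 93.8 UMIs per 10000. Sparc was seen in 107 cells, with a median of 5.65 and a highest value of 57.5 UMIs per 10000. Tgfbi was seen in 80 cells, Ecm1 in 71, Thbs1 in 46 and Postn in 26, so for the last 3 genes the median cell had 0. Of the 144 cells, 6 had none of the 5 genes, 32 had 1, 43 had 2, 41 had 3, 21 had 4 and 1 cell had all 5.

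Of the 5 genes, Sparc had the highest Pearson r with Fn1, at 0.55, and 0.53 after thinning each cell to 5000 UMIs. The r of Postn was 0.27, that of Tgfbi -0.02, of Ecm1 -0.03 and of Thbs1 -0.11, the last 3 too weak in such sparse counts to count as a relation. With Spp1 the r was 0.25 for Sparc and 0.23 for Postn. Depth was weakly related to Sparc (r 0.22 with ln UMIs) and Fn1 (0.09). With the mitochondrial share of UMIs, r was 0.05 for Sparc and 0.34 for Fn1. With the Malat1 share it was -0.29 for Sparc and -0.11 for Fn1. The part of these shares in the r of Sparc with Fn1 was not tested.

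**Figure D3:**
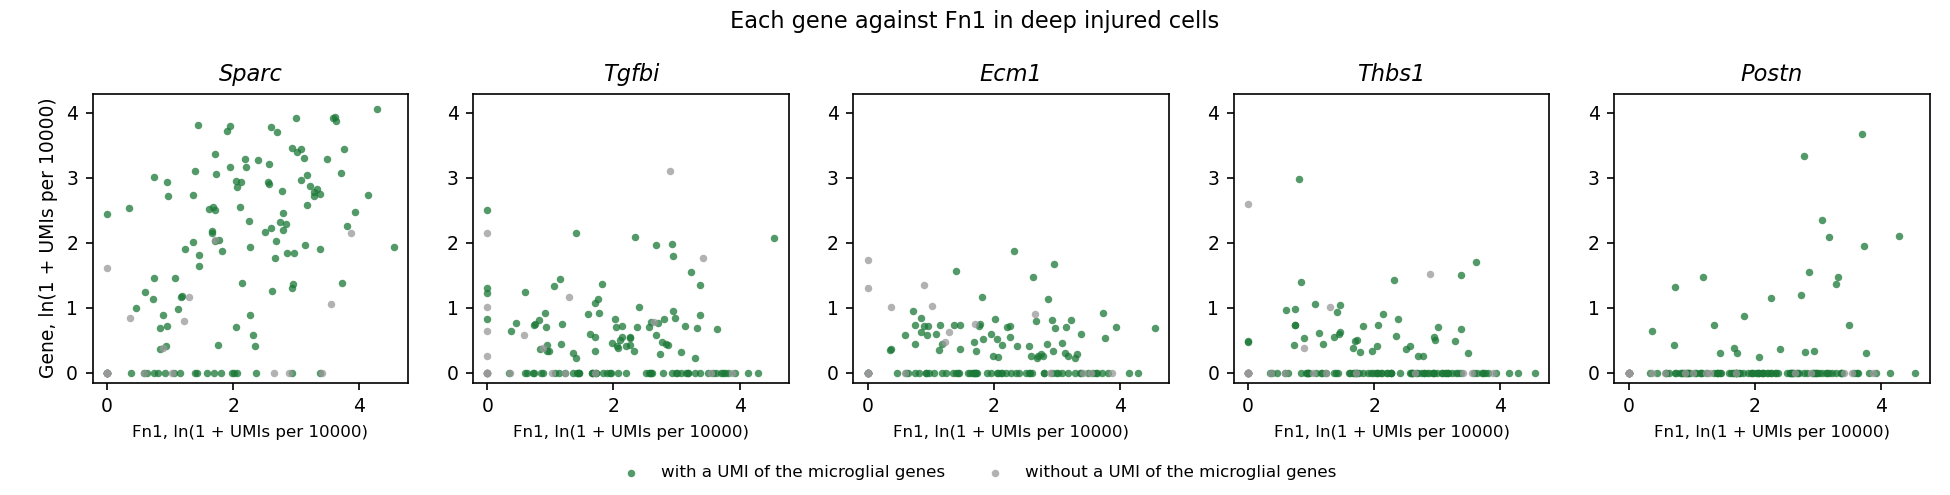
Each of the 144 deep injured cells by its Fn1 (x axis) and by each gene (y axis), both as ln(1 + UMIs per 10000); green cells had a UMI of P2ry12, Tmem119, Siglech, P2ry13 or Gpr34 and grey cells had none. Sparc climbs with Fn1 (r 0.55), Postn is high in a few cells that also have Fn1, and the other genes show no slope.

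In 3 equal groups of 48 deep injured cells ordered by Fn1, Sparc stood at 313 CPM in the lowest, 1166 in the middle and 1711 CPM in the highest group, a ratio of 5.47 (4.80 to 6.25) between highest and lowest. It was seen in 25, 39 and 43 cells of these groups. The median depths were 17926.5, 21746 and 19595 UMIs, and without the 4 cells richest in Sparc the ratio was 4.78 (4.19 to 5.48). Homeostatic microglia markers summed to 4624, 6502 and 6824 CPM in the same order, astrocyte markers to 89.3, 156 and 273 CPM, endothelial markers to 45.2, 61.5 and 105 CPM, and monocyte markers to 78.6, 19.3 and 20.5 CPM. All 3 deep cells with T cell markers lay in the lowest group. The part of these lists in the Sparc values was not tested; without the 3 cells with T cell markers the ratio was 5.35 (4.70 to 6.12).

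Postn stood at 16.7, 13.8 and 220 CPM in the lowest, middle and highest Fn1 group, seen in 4, 8 and 14 cells. The ratio of highest to lowest was 13.2 (7.71 to 24.5), but 3.27 (1.78 to 6.40) without the 4 cells richest in Postn, all of which lay in the highest group. All 26 cells with Postn had Fn1, as did 87.3% of the 118 cells without it.

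For the other genes the ratios between Fn1 groups changed with thinning or with a few cells. Tgfbi stood at 90.5, 87.1 and 115 CPM, a ratio of 1.28 (0.948 to 1.72) that became 3.42 (1.76 to 7.14) after thinning to 5000 UMIs. Ecm1 stood at 79.7, 65.1 and 49.9 CPM, and its ratio of 0.625 (0.426 to 0.914) became 0.918 (0.598 to 1.42) without the 4 richest cells and 1 (0.491 to 2.04) after thinning. Thbs1 stood at 70.2, 44.9 and 19.6 CPM, opposite in order to Sparc, and its ratio of 0.278 (0.159 to 0.469) became 0.679 (0.354 to 1.29) without the 4 richest cells and 0.148 (0.0377 to 0.425) after thinning.

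**Figure D4:**
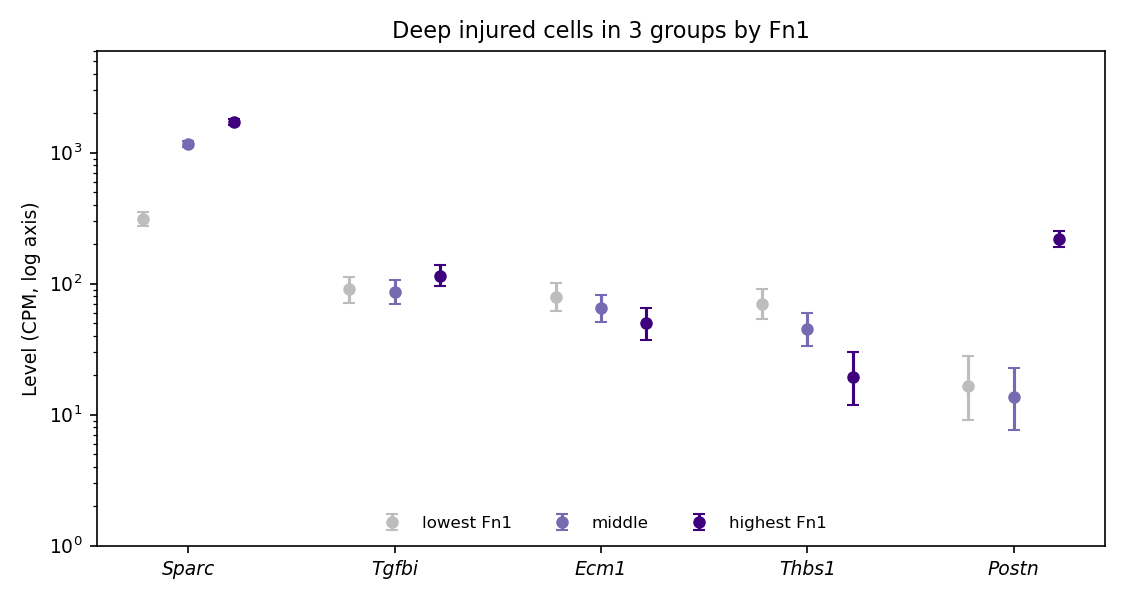
Level (CPM, log axis) of each gene in the 48 deep injured cells with the lowest, the middle and the highest Fn1, with exact 95% Poisson intervals that cover counting error only. Sparc climbs over the 3 groups (313, 1166 and 1711 CPM). Postn is high in the last group (220 CPM, much of it in 4 cells). The summed Thbs1 level descends (70.2, 44.9 and 19.6 CPM), but Thbs1 was seen in 16, 19 and 11 cells. Without its 4 richest cells the Thbs1 ratio of highest to lowest was 0.679 (0.354 to 1.29).

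The deep injured cells were also split by 5 genes typical of resident microglia (P2ry12, Tmem119, Siglech, P2ry13 and Gpr34). Sparc stood at 1231 CPM (3258 UMIs) in the 122 cells with any of them and at 84.6 CPM (26 UMIs) in the 22 cells with none, a 14.6-fold difference (9.91 to 22.3) that was 14.3-fold after thinning to 5000 UMIs. Fn1 differed less, with 1217 CPM in cells with and 527 CPM in cells without them, a ratio of 2.31 (1.97 to 2.72). Postn had all its 254 UMIs in cells with the microglial genes (96.0 CPM) and 0 in those without (up to 9.77 CPM allowed). Cells with the microglial genes were deeper, with a median of 19782.5 UMIs against 10784.5 in cells without them.

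Tgfbi, Ecm1 and Thbs1 had summed levels that were lower in cells with the microglial genes, but not beyond counting error after thinning. Tgfbi stood at 89.6 CPM in cells with and 169 CPM in cells without the microglial genes, a ratio of 0.529 (0.391 to 0.729), or 0.758 (0.507 to 1.17) without the 4 cells richest in Tgfbi. Ecm1 stood at 54.4 CPM in cells with and 146 CPM in cells without them, a ratio of 0.372 (0.264 to 0.532), or 0.535 (0.331 to 0.908) without its 4 richest cells. Thbs1 stood at 39.7 and 74.9 CPM in cells with and without them, a ratio of 0.530 (0.335 to 0.873), or 0.952 (0.476 to 2.16) without its 4 richest cells. After thinning to 5000 UMIs the ratios were 0.721 (0.405 to 1.37) for Tgfbi, 0.672 (0.339 to 1.45) for Ecm1 and 1.58 (0.564 to 6.11) for Thbs1, whose direction thus turned.

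Other marker lists moved with this split of the deep injured cells. Markers of lipid-laden phagocytes summed to 5554 CPM in cells with and 11373 CPM in cells without the microglial genes, monocyte markers to 29.5 and 97.7 CPM, and T cell markers to 0 and 225 CPM. Border macrophage markers summed to 431 CPM in cells with and 143 CPM in cells without the microglial genes, astrocyte markers to 192 and 55.3 CPM, and endothelial markers to 76.7 and 29.3 CPM. The part of these lists in the differences of Sparc and the other genes was not tested.

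**Figure D5:**
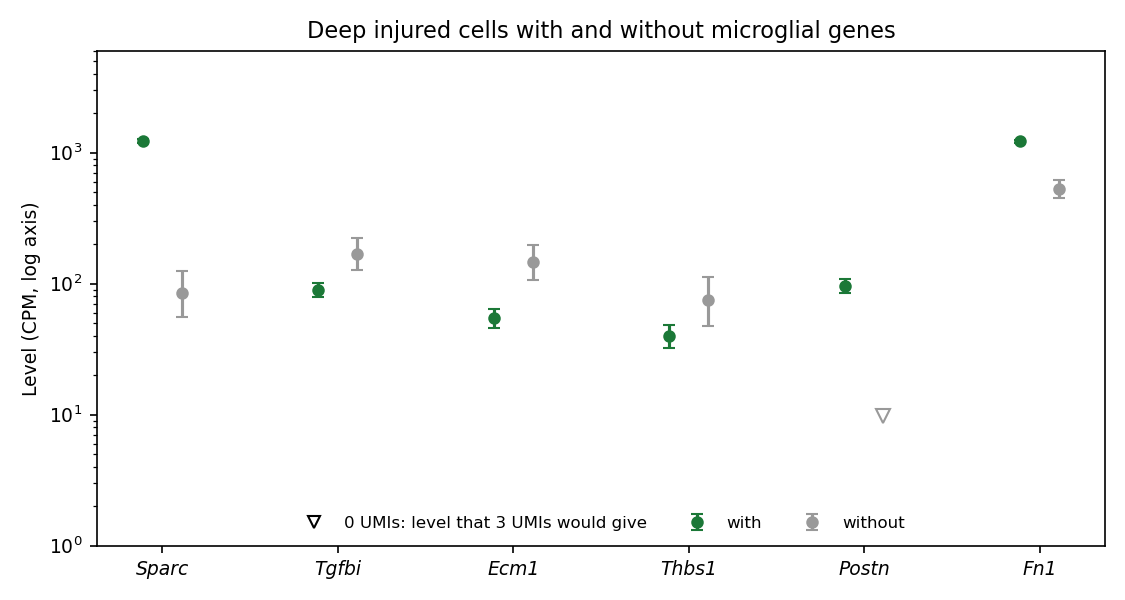
Level (CPM, log axis) in deep injured cells with (green, 122 cells) and without (grey, 22 cells) a UMI of the 5 microglial genes, with exact 95% Poisson intervals; the triangle stands at the level that 3 UMIs would give. Sparc differs most among the genes with UMIs on both sides (1231 and 84.6 CPM), and the unthinned levels of Tgfbi, Ecm1 and Thbs1 lie higher in cells without the microglial genes; after thinning all 3 intervals of the ratio include 1 and Thbs1 turns direction.

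Sparc and Tgfbi were seen together in 53 deep injured cells. Of the 107 cells with Sparc, 49.5% also had Tgfbi, against 73.0% of the 37 cells without Sparc, although the cells with Sparc were deeper (median 21766 UMIs, against 13026 without Sparc). Tgfbi stood at 70.6 CPM in cells with and 208 CPM in cells without Sparc. In the same cells homeostatic microglia markers summed to 6692 CPM with and 3607 CPM without Sparc, monocyte markers to 12.3 and 135 CPM and T cell markers to 0 and 118 CPM, and their part was not tested. The r of the pair was -0.37, and a weak -0.14 after thinning, where Tgfbi was left in 31 cells. Postn and Sparc overlapped: 25 of the 26 cells with Postn had Sparc, as did 69.5% of the 118 cells without Postn.

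The genes most like each member over the 144 deep injured cells were looked up among 6027 genes seen in at least 20% of them. For Sparc they were Serpine2 (r 0.83), a secreted protease inhibitor, Cst7 (0.80), a cystatin known from activated microglia, Cd81 (0.67), Itm2c (0.66) and Cd34 (0.66), and after thinning r was 0.73, 0.71, 0.48, 0.46 and 0.49. Fn1 ranked 24th. For Tgfbi they were H2-Eb1 (0.56), H2-Aa (0.51), Lst1 (0.49), Ifitm3 (0.48) and H2-Ab1 (0.47), of which the H2 genes encode chains of class II antigen-presenting molecules. After thinning these lay between 0.33 and 0.41. For Ecm1 the closest were Kif3a (0.44), Serpinb6a (0.42), Mgst1 (0.42), Capns1 (0.41) and Ftl1 (0.39), and for Thbs1 Clec2d (0.41), Arhgap27 (0.41), Gcnt2 (0.40), Scamp1 (0.38) and Surf2 (0.37), both weak in sparse counts. Postn was seen in 18.1% of these cells, under the minimum of 20%.

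Other genes of the matricellular class were scarce, and only 3 of 22 listed reached the 5% minimum, of which 2 were higher and 1 lower in injured cells. The higher ones were galectins: Lgals3 stood at 1039 CPM in injured cells and 0 UMIs in uninjured cells, at least 30.3-fold higher, and Lgals1 at 421 CPM in injured, against 68.6 CPM in uninjured cells (ratio 6.14, 2.81 to 16.7). Sparcl1, a relative of Sparc known from astrocytes, stood at 3.79 CPM in injured, against 80.0 CPM in uninjured cells (14 and 7 UMIs), 21.1-fold lower (7.22 to 55.9) in injured cells. Each of the 3 genes reached the 5% minimum only in the library where it was higher, so the minimum itself favoured these directions. Over all 6680 genes, 30.3% were higher and 25.3% lower.

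Of 13 listed receptors, 10 were compared, of which 4 were higher, 2 were lower and 4 lay between. Over all 6680 genes, 30.3% were higher and 25.3% lower. The log2 ratios of the compared receptors had a median of 0.22, beside 0.09 over all genes. Itgb1, the shared beta chain of many matrix integrins, stood at 344 CPM in injured, against 91.4 CPM in uninjured cells, and Itgb2, of leukocyte integrins, at 215 and 91.4 CPM, ratios of 3.76 (1.90 to 8.73) and 2.35 (1.19 to 5.46). Itgav, the alpha chain shared by integrins that bind periostin and Tgfbi protein, stood at 41.6 CPM in injured, against 137 CPM in uninjured cells, 3.29-fold lower (1.67 to 5.92). Stab1, a scavenger receptor that takes up Sparc protein, stood at 41.4 CPM in injured, against 80.0 CPM in uninjured cells, a ratio of 0.517 whose interval (0.245 to 1.31) includes 1.

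Of 16 listed genes of transforming growth factor beta signalling, 12 were compared, of which 4 were higher, 3 were lower and 5 lay between. These counts lie near the shares over all 6680 genes, 30.3% higher and 25.3% lower. The median log2 ratio of the 12 genes was 0.22. Skil, a repressor of SMAD signalling that the pathway itself induces, stood at 223 CPM in injured, against 914 CPM in uninjured cells, 4.10-fold lower (3.22 to 5.16). The receptor gene Tgfbr1 stood at 226 CPM in injured, against 514 CPM in uninjured cells, 2.27-fold lower (1.64 to 3.07). The ligand gene Tgfb2 (79 UMIs) and Ltbp3 (66 UMIs), which encodes a binding protein of the latent ligand, were seen in injured cells and had 0 uninjured UMIs, though their injured levels of 21.4 and 17.8 CPM lie under the 34.3 CPM that 0 allows. Their calls as higher followed from that 0, as for all 762 compared genes with 0 uninjured UMIs. The ratio intervals of the other signalling genes called higher include 1, and the intervals of the 3 called lower exclude it. None of the 13 listed matrix partners, among them 8 collagen genes, reached the 5% minimum in either library.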

How the data were processed

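Optic nerve cells were captured with the 10x Genomics 3′ v2 chemistry. Seurat 4.0.3, Cell Ranger 1.3 and bcl2fastq 2.17.1.14 are named with build mm10 in the submitters' processing notes. The authors deposited 1 table of UMI counts per gene and cell, not normalized, whose second line gives each cell's condition. Per the series' design text they kept 778 cells of 200 to 6500 genes; the sources used here do not give how microglia or macrophages were selected. No doublet caller was run and doublets were not removed; 99 injured and 0 uninjured cells exceeded 15000 UMIs.

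Levels are summed UMIs as CPM with exact Poisson intervals, ratios have exact conditional binomial intervals and shares exact Clopper-Pearson intervals, all at 95% and for counting error only. A gene at 0 is bounded by 3 counts over the library. This bound is looser than the exact 95% interval, which for 0 uninjured UMIs reaches 42.2 CPM, against 34.3 CPM for 3 counts. Folds against this bound use the injured level itself and leave out its counting error. Folds of genes compared use CPM + 10 and a ratio of 1.5. Each group being 1 library, nothing was tested. Thinning to 500 UMIs left out 2 uninjured cells. The 26 rows with names turned into dates stayed in the totals and out of the ranking of like genes. Named genes are the 5 members with Fn1 and Spp1, the 5 genes of highest r to each member seen in at least 20% of deep injured cells, and of each list the compared genes, or the 4 with the largest log2 ratio. The members, lists and tests were chosen with earlier results of these data known. Positions are from GENCODE vM21 (mm10). Values were computed with Python 3.11.15, numpy 2.4.6, scipy 1.17.1 and pandas 2.3.3, and the scripts were first tested on simulated data.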

Additional observations from a re-analysis of the deposited data

How the results depend on the processing

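Of 163 alternatives, 116 kept their value within its interval (r within 0.1, counts of genes within 1.5 times) and 0 turned a called direction. The main ratios of Sparc and Tgfbi between the libraries had no called direction to turn. Values of Ecm1 and Thbs1 over the libraries were injured levels alone, which have no direction. The split by microglial genes, where Thbs1 turned direction after thinning, was not among these alternatives. No paired analysis was possible because each group is 1 library. Alternatives by doubted cells (without the richest 4 cells of a gene, without cells with markers of other types) were added after seeing the data. The cause of each shift was not tested.

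The Sparc ratio of injured to uninjured cells was 0.660 with cells weighted equally, 0.675 under 5000 UMIs, 0.638 after thinning to 500 UMIs, 0.330 in Malat1-rich cells, 0.338 without cells of other types' markers (18 of the 20 uninjured cells left were Malat1-poor) and 2.10 in deep cells. Tgfbi had 0.433 in Malat1-poor cells. Injured Ecm1 stood at 41.3 CPM with equal weights, 44.3 under 5000 UMIs, 79.4 in Malat1-rich, 33.4 in Malat1-poor cells and 33.0 after thinning, and Thbs1 at 29.9, 32.2, 96.5 and 12.3 CPM in the first 4 of these. Postn in Malat1-rich injured cells stood at 66.3 CPM with the divide at 2%. Thinned shares of cells were 30.5% of injured and 46.9% of uninjured cells for Sparc, and for injured cells 2.20% for Tgfbi, 1.65% for Ecm1, 1.79% for Thbs1 and 3.71% for Postn, with Postn in 0% of uninjured cells.

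The ratio of the highest to the lowest Fn1 group after thinning to 5000 UMIs was 7.51 for Sparc, 3.42 for Tgfbi, 1 for Ecm1, 0.148 for Thbs1 and 28.5 for Postn. With equal weights it was 6.36 for Sparc and 0.925 for Ecm1. Without the 4 richest cells it was 4.78 for Sparc, 0.918 for Ecm1, 0.679 for Thbs1 and 3.27 for Postn. The r with Fn1 was 0.084 for Tgfbi after thinning, and for Ecm1 0.181 in deep cells up to 15000 UMIs and -0.183 over them.

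Genes called higher numbered 844 with 50 CPM added, 1317 among those seen in 10% of cells and 1265 with a UMI in each library, against 2024. Genes called lower numbered 928, 876 and 2977 under these, and 947 at a fold of 2, against 1687. Of the 5 genes, 1 was called higher at 10% of cells (Ecm1) and 1 with a UMI in each library (Postn). How many genes were compared under these rules is not given here. The member counts thus have no share over all genes beside them and are not read as a result about the 5 genes. Ratios of Postn have no value where uninjured cells held no UMI of it (under 5000 UMIs, both shallow classes, after thinning). The uninjured depth limits the bounds: 0 UMIs of Ecm1 and Thbs1 still allow 34.3 CPM.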
